A study of Drosophila melanogaster with 4 samples.

Results

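Focal dMi-2 sites are compact places on the Drosophila genome where enrichment for the chromatin remodeller dMi-2 was called in both replicates of a ChIP-seq experiment. The sites were chosen by the width and the overlap of called regions: a region of the authors' combined list on 2L, 2R, 3L, 3R, 4 or X was taken as focal when it was over 1300 and at most 2500 bp wide and overlapped at least 1 region of each replicate list by 1 bp or more. Of the 9388 regions in the combined list, 450 met this rule. Chromatin came from Drosophila melanogaster embryos of the wild-type strain Oregon-R, collected at 14 to 16 h of development. Formaldehyde-crosslinked chromatin was precipitated with the dMi-2 antibody Q4443 in 2 ChIP libraries, replicates 1 and 2. The labels also give an input library for each replicate. Nothing in the labels tells whether replicates 1 and 2 were separate collections of embryos, and their spread may be partly technical. Whole embryos were used, so a low score cannot tell binding in few cells from weak binding in many.

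dMi-2 is the Drosophila member of the CHD3/CHD4 group of ATP-dependent nucleosome remodellers, which use ATP to move nucleosomes along DNA. It is the remodelling subunit of the NuRD complex, where it acts beside a histone deacetylase, and of the dMec complex, where it acts with the zinc-finger protein MEP-1. In flies it is known both as a corepressor brought in by DNA-binding proteins and as a protein found at active genes, including heat shock genes after induction. A compact site narrows down where the protein was crosslinked more than a wide domain does, which is why such sites are described here on their own.

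The authors' files give each region a start, an end and a score. The scale of the score is not named, and scores are used here to rank and describe regions within a list. All positions are on FlyBase release 5. The combined list held 9341 regions on the 6 arms, and the replicate 1 and replicate 2 lists held 4209 and 5354. Read counts are not part of these files, and the depth behind each call is unknown. Intervals of shares are 95% exact binomial intervals (Clopper-Pearson) and cover counting error only. No test of a difference between classes of region was made, since all classes come from the same 2 ChIP libraries and the rule itself sorts regions by width and overlap.

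Focal sites were a small fraction of the compact regions and lay towards the wide end of the range. In the focal width range the combined list held 3853 regions on the 6 arms, of which 11.7% were found in both replicates, 1584 were found in 1 replicate and 1819 in none. Over all widths the share in both replicates was 31.9%. These shares depend on the limits of width and overlap that were chosen and describe the selection. The 450 sites covered 0.996 Mb, which is 3.94% of the sequence in the combined list on these arms. Their median width was 2218 bp, with quartiles of 2082 and 2365 bp.

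The lower limit of the width range was never reached by a focal site. The smallest regions of both replicate lists were just over 1300 bp wide, and the narrowest focal site, 2R:8067830-8069388, was 1559 bp wide. It was followed by X:8674470-8676050 with 1581 bp and 2L:13398746-13400390 with 1645 bp. Between 1501 and 1750 bp, 6 of 902 combined-list regions were in both replicates, against 53 of 995 between 1751 and 2000 bp and 200 of 557 between 2251 and 2500 bp. Just inside the upper limit lay 2L:4965230-4967728 and 3R:12011900-12014398, both 2499 bp wide, with scores of 0.398 and 0.614. Just outside it lay 2R:3665818-3668318, 2R:15992870-15995370 and 3L:856366-858866, each 2501 bp wide, with scores of 0.515, 0.431 and 0.531. The scores of these regions on either side of the limit overlapped.

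**Figure D1:**
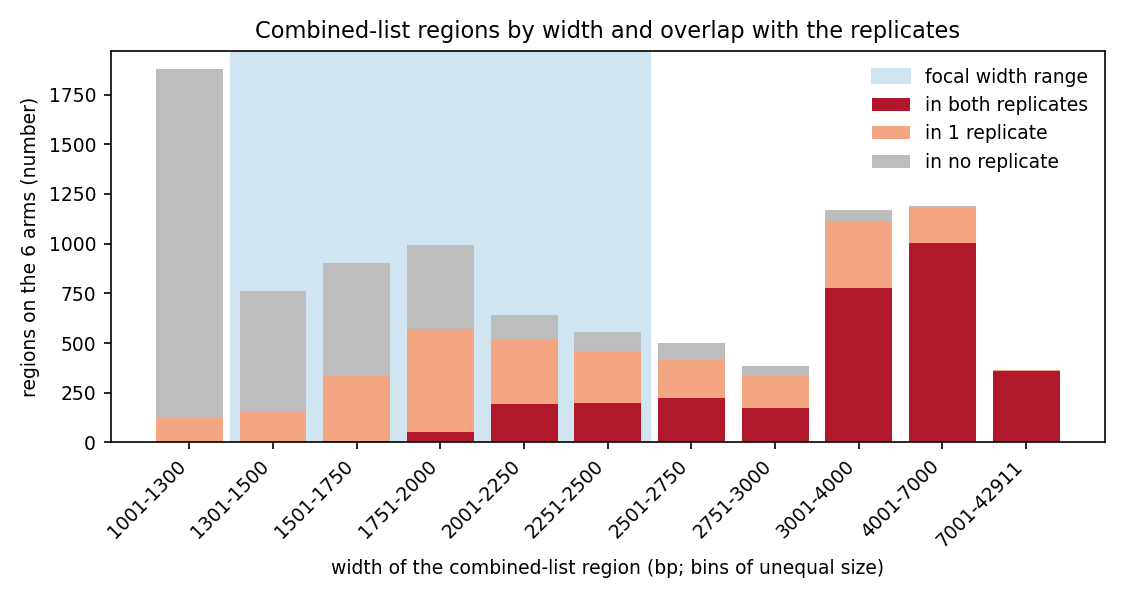
Number of combined-list regions on the 6 arms (vertical axis) by width in bp (horizontal axis, bins of unequal size), stacked by overlap with both, 1 or no replicate list; the shaded bins are the focal width range. Of the regions 2251 to 2500 bp wide 200 were in both replicates, against 6 of those 1501 to 1750 bp wide.

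Focal sites were spread over all long arms at nearly even density, with fewer on X and a single site on chromosome 4. Arm 2R carried 91 sites, or 4.30 per Mb, followed by 3R with 110 sites (3.94 per Mb), 3L with 96 (3.91 per Mb) and 2L with 89 (3.87 per Mb). Arm X carried 63 sites, or 2.81 per Mb, against 3.74 per Mb over the 6 arms. X thus held 14.0% of the focal sites (interval 10.9 to 17.6) on 18.6% of the sequence. Its 78.0 combined-list regions of any width per Mb stood beside 77.6 per Mb over the 6 arms. Within X, each of the 3 equal stretches of the arm held 21 sites.

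Within the focal width range, the density on X was low only where overlap with replicate 1 was asked for. Of the compact regions on X, 8.76% were in both replicates, against 12.04% to 12.7% on 2L, 2R, 3L and 3R. Regions in replicate 2 alone made up 31.4% of the compact regions on X and 27.4% to 28.7% on the long autosomal arms. Those in replicate 1 alone made up 11.3% on X, within the 9.82% to 14.9% on the long autosomal arms. When overlap with replicate 2 alone was asked for, the density on X was 1.00 times that of the 6 arms, and with replicate 1 alone it was 0.826 times, against 0.752 times when both were asked for. With replicate 1 alone the density on 2L was also below that of the 6 arms, at 0.883 times. The width limit mattered too. With both replicates asked for, the density on X was 0.728 times with widths up to 2000 bp and 0.869 times up to 3000 bp. Wider regions in both replicates stood at 20.4 per Mb on X, against 18.2 to 25.6 per Mb on the long autosomal arms. Which property of the replicates or of the region widths sets X apart was not tested.

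The only focal site on chromosome 4, the small and largely heterochromatic chromosome, was 4:76120-78198. It was 2079 bp wide with a combined-list score of 0.391. The replicate 1 region at this place scored 0.433 and the replicate 2 region 0.477, with centres 162 bp apart. It was the first combined-list region of the chromosome, and the next began 8.84 kb farther on.

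Focal sites typically had another called region within a few kb. The distance between a site and the nearest other combined-list region, measured between their edges, had a median of 1.98 kb and quartiles of 0.593 and 4.51 kb. For compact regions in 1 replicate the median was 1.54 kb, for those in no replicate 1.59 kb, and for wider regions in both replicates 1.32 kb. Over all combined-list regions on the 6 arms it was 1.46 kb. Another region lay within 1 kb of 147 focal sites, or 32.7%, against 40.3% of all combined-list regions on the 6 arms. At 1 site, 3R:2484448-2486726, the neighbouring region shared 1 base with it. The number of other combined-list regions within 50 kb of the centre had a median of 9.5 for focal sites, against 10.0 in each of the other 3 classes.

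The nearest neighbour was seldom another focal site. It was a region in no replicate at 187 sites (41.6%), a region in both replicates at 137 (30.4%) and a region in 1 replicate at 126 (28.0%). These kinds make up 40.4%, 31.9% and 27.7% of the combined list on these arms, shares close to those among the neighbours. The neighbour had a higher score than the site in 184 cases (40.9%), and the matching share over all regions was not computed. The neighbour was itself focal in 15 cases (3.33%), and focal sites make up 4.82% of the list. From a focal site to the nearer of its focal neighbours the median distance was 74.5 kb, and the largest was 963 kb.

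A minority of focal sites stood alone. No other combined-list region lay within 5 kb of 102 sites (22.7%, interval 18.9 to 26.8), within 10 kb of 41 (9.11%, interval 6.62 to 12.2) or within 20 kb of 16 (3.56%, interval 2.05 to 5.71). At 10 kb the share was 7.58% (interval 6.32 to 8.99) for compact regions in 1 replicate and 8.85% (interval 7.59 to 10.3) for those in no replicate. Wider regions in both replicates had 5.56% (interval 4.70 to 6.53). At 10 kb the interval of focal sites overlapped those of the other compact classes and lay just above that of the wider regions. The intervals treat regions as independent, which regions of the same libraries are not. Their order is a description only, and the differences themselves were not tested. At 50 kb, 3 focal sites remained (0.667%), against 6 of 1584 compact regions in 1 replicate (0.379%) and 16 of 1819 in no replicate (0.880%). Of the 2534 wider regions in both replicates 0 remained, for which the exact interval reaches 0.145%.

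**Figure D2:**
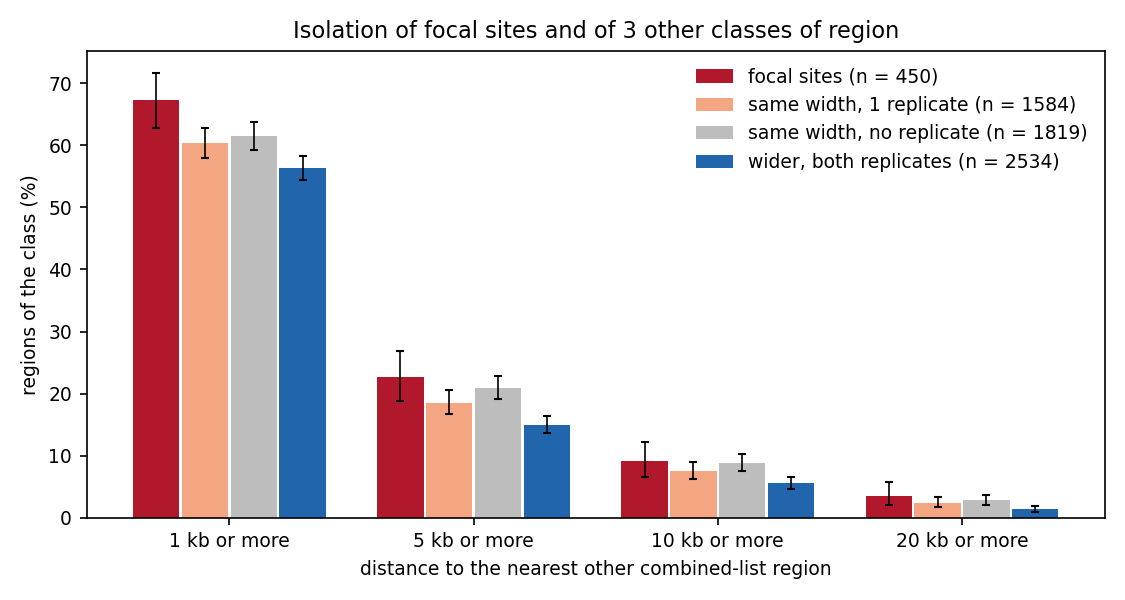
Share of regions (%, vertical axis) with no other combined-list region within 1, 5, 10 or 20 kb, for focal sites, for compact regions in 1 or no replicate and for wider regions in both; error bars are 95% exact binomial intervals. At 10 kb the bar of focal sites stands at 9.11% and that of the wider regions at 5.56%.

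For the sites isolated in the combined list, long distances in the sparser replicate lists largely follow from the choice of these sites and are given as a description. For 40 of the 41 sites isolated by 10 kb or more the nearest other region was over 10 kb away in both replicate lists. The median distance in the replicate 1 list was 25.2 kb at isolated sites, against 6.38 kb at the other 409 focal sites. In the replicate 2 list it was 22.6 kb at isolated sites, against 4.24 kb at the others. By arm, 13 isolated sites lay on 3R, 12 on 2L, 7 on 3L, 5 on 2R, 4 on X and 0 on chromosome 4.

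The focal site farthest from any other was 2L:17962350-17964510, a 2161 bp region with no other within 154.7 kb. It scored 0.426 in the combined list, 0.576 in replicate 1 and 0.482 in replicate 2. The next was 3L:20096766-20098922, with 73.8 kb to its nearest neighbour and scores of 0.466, 0.484 and 0.476 in the combined, replicate 1 and replicate 2 lists. A further site on 2L at 12617322 to 12619424 had 58.0 kb around it. On 2R the site 15451468 to 15453426 had 39.95 kb, and on X the site 9825638 to 9827670 had 31.7 kb. All 5 had replicate centres within 250 bp of each other, from 24 bp at the 3L site to 234 bp at the first 2L site.

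The replicates placed the centre of a focal site at nearly the same position. The distance between the centres of the replicate 1 and replicate 2 regions had a median of 142.5 bp and quartiles of 66.5 and 270 bp. It was at most 250 bp at 327 sites (72.7%, interval 68.3 to 76.7) and at most 100 bp at 169 (37.6%, interval 33.1 to 42.2). The rule limits how far apart the centres can lie, as both regions have to touch a site of at most 2500 bp. Among 1916 wider regions with 1 region in each replicate, the median distance was 312 bp, and 41.2% were within 250 bp. Relative to the mean width of the replicate regions, the median distance was 8.14% at focal sites, against 11.8% at the wider regions. The width limit of the rule bears on this comparison too.

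Centres did not shift in 1 direction. The replicate 1 centre had the higher coordinate at 230 sites and the lower at 219, and the median signed difference was 6.5 bp. Starts differed by a median of 193.5 bp and ends by 192.5 bp. The overlap of the replicate regions made up a median of 79.0% of the sequence in either, against 70.6% at the wider regions. The rule asks both replicate regions to touch a site of at most 2500 bp, which bears on this comparison. The regions may extend beyond the site, and both lay wholly inside at 305 of the 450 sites. How much of the difference from the wider regions follows from the rule was not tested, and it is given as a description. Exactly 1 region of each replicate lay at 449 of the 450 sites. The exception was 2L:12095486-12097790, which 2 regions of replicate 2 overlapped.

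**Figure D3:**
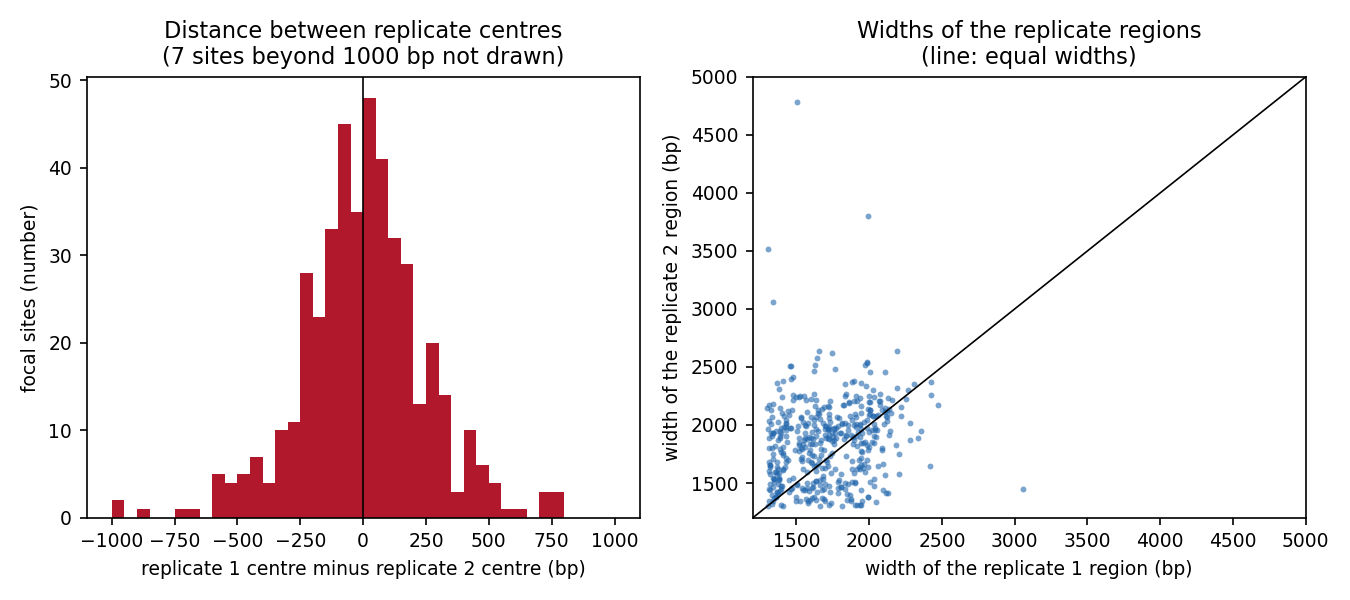
Left, number of focal sites (vertical axis) by replicate 1 centre minus replicate 2 centre in bp (horizontal axis, bins of 50 bp). Right, width in bp of the replicate 1 region (horizontal) and of the replicate 2 region (vertical) at each of the 450 sites; the replicate 2 region was wider at 292 sites, above the line.

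Replicate regions were narrower than the combined one at most sites. Their median width was 1693 bp in replicate 1 and 1878 bp in replicate 2. At 305 of the 450 sites both replicate regions lay wholly inside the combined region. The centre of the combined region was a median of 47.5 bp from the mean of the replicate centres. Regions close to the minimum width of the replicate lists, under 1500 bp, were found at 116 sites in replicate 1 and at 86 in replicate 2.

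The few sites with the most distant centres lay beside close neighbours, but over all sites the distances were hardly related. Across the 450 sites, centre distance and distance to the nearest neighbour had a Spearman's rho of -0.0963. The median centre distance was 143 bp at isolated sites, against 142.5 bp at the other focal sites. The centres were over 1000 bp apart at 7 sites, and each of the 7 had another combined-list region within 221 bp. Of the 33 sites with centres over 500 bp apart, 22 had one within 1 kb, against 147 of all 450 sites. The largest distance was 3004 bp at 3R:13439944-13442394, where a replicate 1 region of 1506 bp and a replicate 2 region of 4784 bp shared 141 bases and the next combined region began 1 bp beyond the site. At 3 of the 7 sites, namely 2L:8295642-8297966, 3L:17037354-17039692 and 3R:2070400-2072252, the replicate regions did not overlap each other at all. These sites meet the rule although the replicates mark different parts of them. At the 41 isolated sites the largest distance was 707 bp. At the other end, the centres coincided exactly at 3R:21057178-21059570 and lay 1.5 bp apart at 3R:6489832-6491782 and 3R:23570610-23572822, and 2.5 bp apart at 2R:13584244-13586358 and 3L:21761706-21763860.

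Scores of focal sites were moderate, with a short upper tail. In the combined list they ran from 0.255 to 1.78 with a median of 0.473, against 0.407 for compact regions in 1 replicate, 0.389 for those in none and 0.567 for wider regions in both. These medians follow from the same reads that the rule used. The highest score was 0.694 for compact regions in 1 replicate, 2.40 for those in none and 1.47 for wider regions in both. The highest-scoring focal site ranked 42 of 9388 in the combined list. Within the replicate lists, focal sites stood low: the median site ranked 2964 of 4213 in replicate 1 and 3921 of 5359 in replicate 2. Both replicate regions were among the highest-scoring 50% of their lists at 52 sites (11.6%), 1 of them at 136 (30.2%) and neither at 262 (58.2%). The same split was not made for wider regions in both replicates.

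Only a few focal sites ranked high in both replicates. Both regions were among the highest-scoring 10% of their lists at 7 sites (1.56%), a set listed after the values had been seen. The matching share of wider regions in both replicates was not computed. Of the 7 sites 4 lay on X, which held 14.0% of all focal sites. The median score of all combined-list regions was 0.494 on X, against 0.431 on 2L, 2R, 3L and 3R. X:5417228-5419646 led with scores of 1.84 in replicate 1 (rank 3) and 1.74 in replicate 2 (rank 4). 2R:19726360-19728844 followed with scores of 1.36 (rank 10) and 1.31 (rank 12). X:13907808-13910154 scored 1.08 (rank 38) and 0.843 (rank 421), and 3L:1400514-1402912 scored 0.890 (rank 177) and 0.864 (rank 337). Between the second and the third of these sites the combined-list score dropped to 0.898, against 1.30 at the second, so the leading 2 sites stood apart.

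Centres at the 5 highest-scoring sites were close, but over all focal sites score and centre distance were hardly related. Across the 450 sites their Spearman's rho was -0.0698. The replicate centres were 64 bp apart at the leading X site, 39.5 bp at the 2R site, 74.5 bp at X:13907808-13910154, 10 bp at X:9045186-9047542 and 5 bp at 3L:1400514-1402912, which are the 5 sites with the highest combined-list scores. None of these 5 was isolated by 10 kb. Their nearest neighbours were 1.39, 0.773, 8.25, 0.593 and 1.56 kb away.

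Site scores agreed only loosely between replicates. Across the 450 sites Spearman's rho of the replicate scores was 0.317 and Pearson's r was 0.582. Without the 2 highest-scoring sites r was 0.396, a value computed after the data had been seen. Over the 1916 wider regions with 1 region in each replicate, rho was 0.521. These are correlations across regions of the same 2 libraries, which are not independent, and scores of focal sites cover a narrow range. Across the same 450 sites the score had a rho of 0.562 with the width of the site and 0.00243 with its distance to the nearest neighbour.

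On X, focal sites had higher scores in each list. The median was 0.513 on X, against 0.464 on 2L, 2R, 3L and 3R, in the combined list. In replicate 1 it was 0.662 on X, against 0.558 on the 4 autosomal arms, and in replicate 2 it was 0.630 on X, against 0.550 on those arms. All combined-list regions showed the same order, with medians of 0.494 on X and 0.431 on the 4 arms, so this is a trait of the list and was not shown to be one of focal sites.

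**Figure D4:**
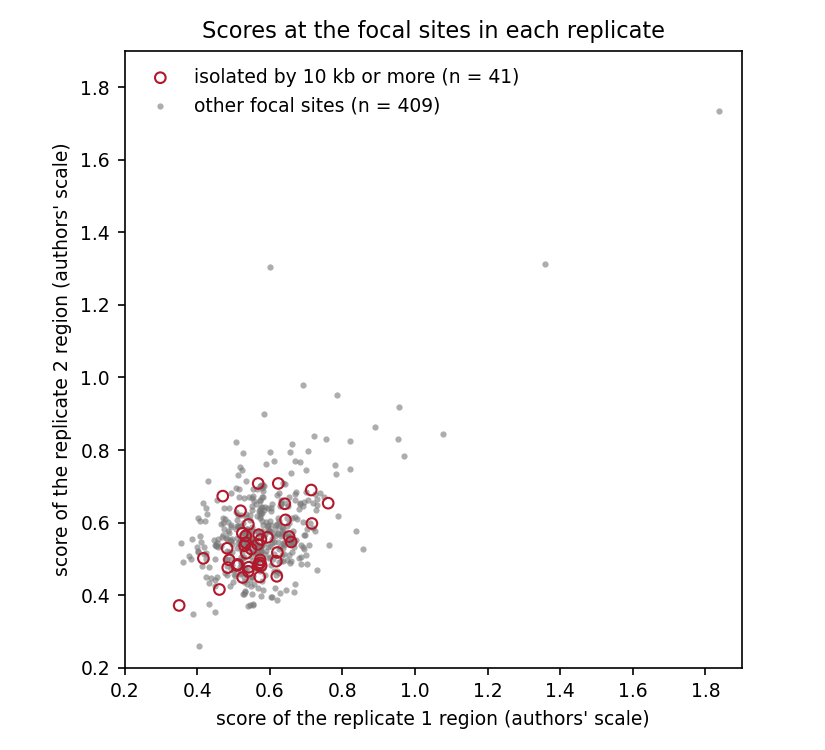
Score of the replicate 1 region (horizontal axis) and of the replicate 2 region (vertical axis), on the authors' scale, at each focal site; open circles are the 41 sites isolated by 10 kb or more and grey points the other 409. The 2 sites with combined-list scores above 1 lie at the upper right, and no isolated site is near them.

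The isolated sites had moderate scores in the combined list and stood low in the replicate lists. Of the 6 focal sites with a combined-list score above 0.8, 0 were isolated by 10 kb, a count too small to set against the 9.11% of all focal sites that were. The isolated sites had a median score of 0.439 and a highest score of 0.689, against a median of 0.476 and a highest of 1.78 at the other focal sites. In replicate 1 the medians were 0.566 at isolated sites and 0.572 at the others, and in replicate 2 they were 0.529 at isolated sites and 0.559 at the others. Counted from the lowest score, the median percentile in the replicate 1 list was 28.1 at isolated sites and 30.1 at the others. In the replicate 2 list it was 17.8 at isolated sites and 28.3 at the others. At 0 of the 41 isolated sites both replicate regions were among the highest-scoring 25% of their lists, which by a limit of 3 counts allows a share of up to 7.32%. The share over all 450 sites, 3.56%, lies within that limit.

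The highest-scoring isolated site was X:18458844-18461112. It was 2269 bp wide, scored 0.689 in the combined list, 0.761 in replicate 1 and 0.654 in replicate 2, and had 11.7 kb free on its lower-coordinate side and 30.5 kb on the other. Its replicate centres were 209 bp apart. Second was 2R:20000776-20003138, which scored 0.642 in the combined list, 0.714 in replicate 1 and 0.690 in replicate 2, with 13.1 and 15.8 kb free on its sides. This site ranked 930 of 4213 in replicate 1 and 1627 of 5359 in replicate 2. Its replicate centres were 55 bp apart, and the replicate widths were near-equal at 2125 and 2121 bp.

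On 2L the leading isolated site was 2L:20003670-20006128, with scores of 0.563 in the combined list, 0.519 in replicate 1 and 0.633 in replicate 2 and 17.2 kb to its nearest neighbour. On 3R it was 3R:26911390-26913458, with scores of 0.544, 0.541 and 0.595 in the same order and 22.0 kb around it. On 3L the leading site was 3L:4691506-4693942, with scores of 0.561, 0.619 and 0.452. Its nearest neighbour, 24.9 kb away, was the isolated site 3L:4718888-4721384, with scores of 0.536, 0.643 and 0.608. These 2 sites follow each other in the combined list, with 63.1 kb free before the first and 23.7 kb after the second, so an otherwise empty stretch held a pair of compact sites.

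A further 3 of the 15 highest-scoring isolated sites lay on X. X:20052316-20054482 scored 0.528 in the combined list, 0.470 in replicate 1 and 0.673 in replicate 2, and the stretch before it was free of regions for 193.7 kb. X:17683066-17685268 scored 0.508, 0.623 and 0.708, and its replicate centres were 428 bp apart, the largest distance among the 15 highest-scoring isolated sites. X:9825638-9827670 scored 0.505, 0.569 and 0.567, with centres 34 bp apart. The first of these was near the bottom of the replicate 1 list, at rank 4008 of 4213, and ranked 1865 of 5359 in replicate 2.

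The remaining 6 of the 15 scored 0.464 to 0.497 in the combined list. On 3R this was 3R:21057178-21059570, the site with coinciding centres, which scored 0.659 in replicate 1 and 0.547 in replicate 2. On 2L these were 2L:1092138-1094148, 2L:11873420-11875654 and 2L:14053690-14055746, with replicate 1 scores of 0.568, 0.509 and 0.716 and replicate 2 scores of 0.708, 0.482 and 0.598. On 3L they were 3L:20096766-20098922, already given among the most remote, and 3L:14123794-14125906, which scored 0.566 in replicate 1 and 0.540 in replicate 2. Over all 15 sites, 11 had centres within 250 bp, and at 10 both replicate regions lay wholly inside the combined region. Ranks ran from 577 to 4008 in replicate 1 and from 1409 to 5154 in replicate 2, so several are weak regions in 1 list or both.

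**Figure D5:**
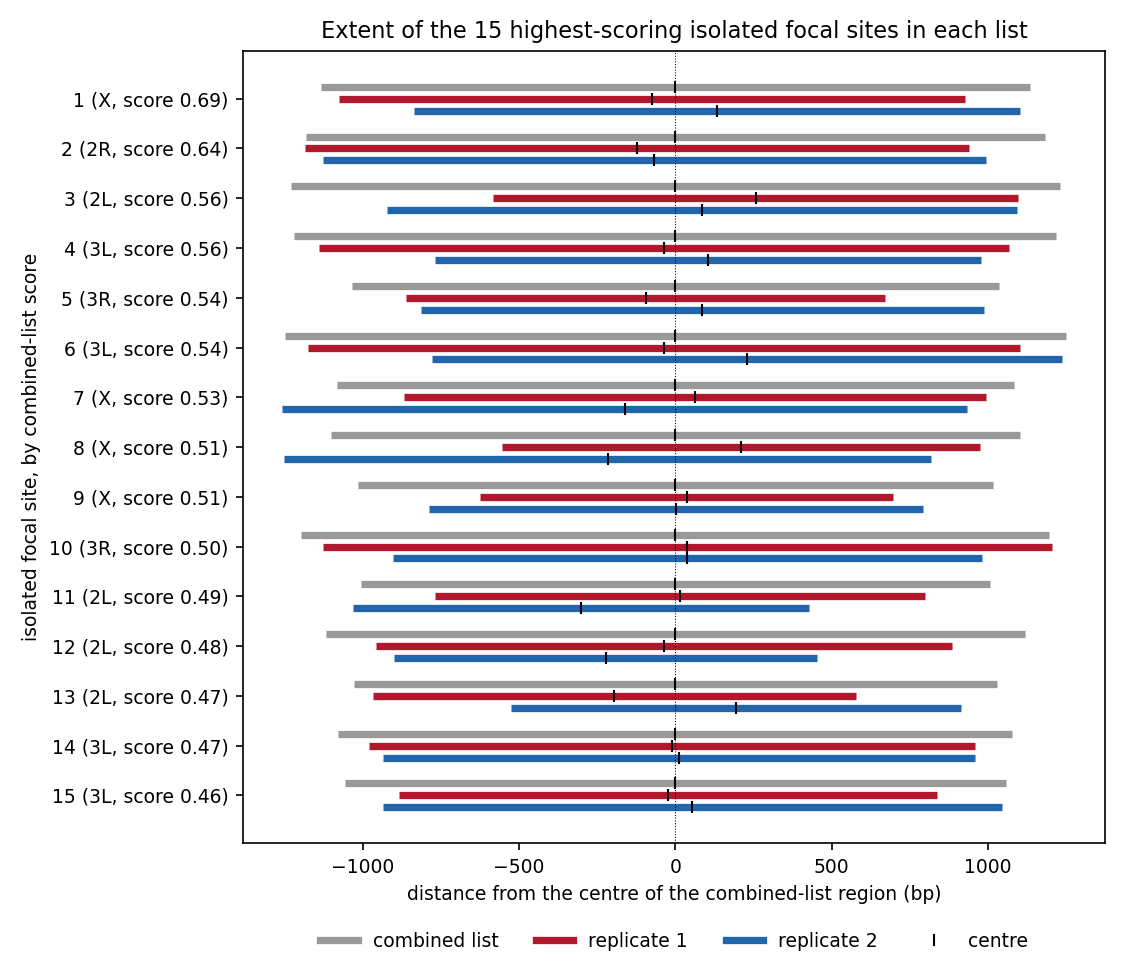
Extent of the 15 highest-scoring isolated focal sites in the combined, replicate 1 and replicate 2 lists, as distance in bp from the centre of the combined region (horizontal axis); ticks mark centres, and rows run from the highest score, 0.69 on X, to the lowest, 0.46 on 3L. The centres of the replicates coincide at the 3R site in row 10 and lie 428 bp apart at the X site in row 8.

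Choosing by replicate rank instead gave a different top. When isolated sites were ordered by the worse of their 2 replicate ranks, 9 of the 15 sites were kept. First came 2R:20000776-20003138, then X:17683066-17685268 and X:18458844-18461112. The fourth, 2R:16582570-16584544, ranked 1817 and 2163 in the replicates although its combined-list score was 0.436. With 21.9 kb to its nearest neighbour it is a place where both replicate lists ranked a region above the middle of the list and the combined list ranked it 5009 of 9388.

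Runs of focal sites were short. The densest stretches of 100 kb held 4 focal sites each. They were 2R:5768234-5838402, 3R:3985048-4066522 and X:19545312-19642176, spanning 70.2, 81.5 and 96.9 kb. These stretches held 15, 13 and 16 combined-list regions in all, so focal sites lay among other regions there. In the whole list 20 pairs of focal sites followed each other directly, and 49 focal sites had another within 10 kb. Focal sites make up 4.82% of the combined list on the 6 arms. How many such pairs and runs this share alone would give was not computed, so these counts are no sign of clustering.

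The lowest-scoring focal site, 3R:3761738-3763492, was in the low ranks of each list. It scored 0.255 in the combined list (rank 9353), 0.350 in replicate 1 (rank 4206) and 0.372 in replicate 2 (rank 5345). Even so its replicate centres were 65.5 bp apart and the nearest other region was 14.2 kb away. The next lowest, 2R:8067830-8069388, which is also the narrowest, scored 0.276 in the combined list and 0.669 in replicate 1. Its replicate centres were 1787 bp apart, the replicate regions shared 95 bp, and another combined region began 51 bp away. The 2 sites thus differed in how well the replicates marked the same place.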

How the data were processed

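The data used were 3 region lists in GFF3, 1 for each ChIP replicate and 1 combined list; the 2 input libraries had no list of their own in the data used here. Per the submitters' processing notes, Bowtie 0.12.7 was used, and per the file headers the build is FlyBase release 5. The caller of the regions, its settings, the read filters and the making of the combined list (pooled reads or not) were not given in the sources used here. The authors deposited a score for each region, whose scale the file headers do not name. Starts and ends were used as deposited, with 1 end given in exponent notation.

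Overlap was counted from 1 bp. Isolation is the number of bases between a site and the nearest other combined-list region. At each site the replicate region with the longest overlap was used, and the centre is the midpoint of start and end. Classes are combined-list regions on the 6 arms: compact (over 1300 to 2500 bp) in both, 1 or no replicate, and wider in both. Counts were tested on simulated data and checked against bedtools 2.31.1. Python 3.11.15, numpy 2.4.6, pandas 2.3.3, scipy 1.17.1 and matplotlib 3.10.9 were used. The members, thresholds and naming rules were chosen with earlier results of these data known. Named were the 15 highest-scoring isolated sites (10 kb or more), the highest of each arm, the 5 most isolated, the 5 highest-scoring, the 5 closest and 5 farthest pairs of centres, the 2 lowest-scoring and the 3 densest runs. Others were named after their values had been seen. The gene table at hand is on Release 6, so no gene or sequence was assigned. Alternatives were other overlap and width limits, each replicate alone, other measures of isolation and of matching, and other rankings.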

Additional observations from a re-analysis of the deposited data

How the results depend on the processing

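Of 85 alternative values on the scale of the reported one, 52 fell inside the 95% interval around the reported value or, for counts, within 1.5 times of it. None of the values moved when a reciprocal overlap of 50% was asked for. As a percentile of its list, the median score stood at 62.0, above the middle of the list as the score itself was. With widths up to 2000 bp there were 59 sites, 8 of them isolated by 10 kb, with a median isolation of 1.51 kb, a median score of 0.382, a median centre distance of 100.0 bp and a rho of 0.437, and the densities relative to the 6 arms were 0.798 on 2L, 0.868 on 2R, 1.41 on 3L and 0 on chromosome 4. With widths up to 3000 bp there were 846 sites, 77 isolated, a median score of 0.501, a median centre distance of 177 bp and 65.5% of centres within 250 bp. Asking for 1 replicate alone gave 936 to 1548 sites, 84 to 118 isolated ones, a median isolation of 1.61 to 1.81 kb, a median score of 0.424 to 0.431 and a density on X of 0.826 to 1.00. The nearest region in both replicates was a median of 8.05 kb away, which left 200 sites isolated by 10 kb. Between centres the median distance was 4.57 kb, with 68 sites isolated. At 5 kb and 20 kb, 102 and 16 sites were isolated, and 2 and 6 of the 15 named isolated sites stayed among the first 15. By the worse replicate rank 9 stayed. Pearson's r of the scores was 0.582. The cause of the other shifts was not tested. No paired analysis was possible because the lists hold no values for input libraries and the results come from no test between groups. The deposited lists give no depth, so how firmly a site was called is unknown.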

Other observations

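Many focal sites carried a score that another region of the same list had to every deposited digit. This held for 236 of the 450 sites in replicate 1 (52.4%) and for 219 in replicate 2 (48.7%), against 42.9% and 40.1% of all regions in those lists. In the combined list it held for 119 sites (26.4%), against 37.6% of all its regions. Ranks of such sites are therefore shared, as at X:17683066-17685268 and 2L:1092138-1094148, which both scored 0.708 and ranked 1409 in replicate 2. Outside the 6 arms, 7 of the 47 combined-list regions were of the focal width, and 0 of these 7 were found in both replicates.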
